A study of Mus musculus with 32 samples.

Results

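The ubiquitin-specific proteases of the mouse were followed through the first wave of meiotic prophase in poly-A RNA sequencing of testicular germ cells. Members were taken by name, as protein-coding genes whose symbol is Usp followed by a digit in GENCODE release M21. The annotation holds 56 such genes, and 48 of them stood among the 20368 expressed genes of the juvenile table, whose genes reach 3 TPM, a relative transcript abundance scaled to library total and transcript length, in at least 1 mouse. All 56 were present in the transcript table. The juvenile samples were germ cell preparations of 28 individual C57BL/6J males, 3 at 8 days post-partum (dpp) and 5 each at 10, 12, 14, 16 and 18 dpp. The study left out other 8 dpp samples that matched those of the same age poorly, so the spread at 8 dpp may be understated. The 4 adult samples were pachytene and diplotene spermatocytes enriched by sedimentation (STA-PUT) at 9 weeks, each a pool of 6 mice. All donors were males of that strain with no treatment or altered allele in the labels. Since the values are TPM, read depth and counting error are unknown, and errors are the spread between mice.

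Ubiquitin is a small protein that is joined to lysines of other proteins by the successive action of E1, E2 and E3 enzymes, and deubiquitinases cut it off again. The ubiquitin-specific proteases are cysteine proteases and form a large family of deubiquitinases, and they act on targets as varied as endosomal receptors, histones, DNA repair proteins and cell cycle regulators. In male meiotic prophase, germ cells pass from spermatogonia through leptonema and zygonema to pachynema, when homologous chromosomes are synapsed and the X and Y chromosomes are transcriptionally silenced. Usp6nl shares the name only: it encodes a GTPase-activating protein for Rab GTPases. Usp39, a spliceosome component, lacks the catalytic residues.

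The element that the family shares is the stretch around the catalytic cysteine. In coding sequences of GENCODE M21 (GRCm38), a cysteine codon in the setting typical of the family was found in 54 of the 56 genes and in 46 of the 48 in the juvenile table, the 2 without it being Usp39 and Usp6nl. Of the 45 codons read out, 25 were TGC and 20 TGT. The windows of 39 coding bases below are read 5′ to 3′ with the cysteine codon in capitals. They show the genes with the largest rises, the sex-linked genes and some of their relatives. Near-identical stretches bear on how reads could be assigned.
Usp2: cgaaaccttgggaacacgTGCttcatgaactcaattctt
Usp1: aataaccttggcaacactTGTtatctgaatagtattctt
Usp8: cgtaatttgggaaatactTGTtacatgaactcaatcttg
Usp20: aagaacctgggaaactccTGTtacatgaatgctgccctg
Usp44: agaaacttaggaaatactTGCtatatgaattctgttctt
Usp9x: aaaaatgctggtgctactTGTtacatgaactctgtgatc
Usp9y: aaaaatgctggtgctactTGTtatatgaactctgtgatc
Usp22: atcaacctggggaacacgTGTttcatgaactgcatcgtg
Usp27x: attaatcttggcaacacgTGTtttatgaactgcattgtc
Usp26: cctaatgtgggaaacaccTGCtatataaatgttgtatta
Usp11: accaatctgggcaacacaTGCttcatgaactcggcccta
Usp15: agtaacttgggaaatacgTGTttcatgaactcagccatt
The capital codon lies at chr9:44090030-44090032 in exon 5 of Usp2 (transcript Usp2-208) and at chr4:98928331-98928333 in exon 3 of Usp1. The Usp8 codon lies at chr2:126751101-126751103 in exon 14, and the Usp9x codon at chrX:13145219-13145221 in exon 31. Usp9x and Usp9y differed at 1 of the 39 bases, against 7 for Usp22 and Usp27x and 11 for Usp11 and Usp15. Against relatives whose windows are not shown, Usp11 differed from Usp4 at 9 bases, Usp27x from Usp51 at 6 and Usp26 from Usp37 at 10. Over whole coding sequences, 83.6% of the aligned bases of Usp9x and Usp9y were identical, 77.7% of those of Usp22 and Usp27x and 77.2% of those of Usp12 and Usp46. The other pairs compared within related sets shared 58.9% to 73.7% of aligned bases. How reads shared by such copies were divided rests on the authors' estimation, so the levels of Usp9y, the lower of the most similar pair, are uncertain.

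Promoters from the RefSeq table (GRCm38.p6, 250 bases before to 50 after the start) were matched for 36 of the 48 genes. Those of Usp2 and Usp8 are shown, without the bases after the start, Usp2 because it has alternative starts and Usp8 because its window holds matches. Usp20, which rose more than Usp8, held 0. Letters matching the MYB-type motif AACNGNC on either strand are in capitals.
Usp8: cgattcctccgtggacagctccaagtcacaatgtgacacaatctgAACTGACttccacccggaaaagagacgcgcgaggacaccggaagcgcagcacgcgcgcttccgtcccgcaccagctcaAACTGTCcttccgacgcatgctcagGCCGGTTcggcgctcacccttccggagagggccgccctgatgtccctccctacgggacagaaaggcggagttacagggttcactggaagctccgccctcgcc
Usp2: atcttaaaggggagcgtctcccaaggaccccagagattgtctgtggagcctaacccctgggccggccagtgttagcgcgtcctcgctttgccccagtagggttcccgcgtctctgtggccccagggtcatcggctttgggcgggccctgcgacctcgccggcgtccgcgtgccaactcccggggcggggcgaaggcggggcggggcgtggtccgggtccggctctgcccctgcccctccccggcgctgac
The first lies at chr2:126707078-126707327 and the second at chr9:44084670-44084919, both on the + strand. The upstream bases of Usp8 held 3 matches and those of Usp2 held 0, so that its sequence carries no capitals. AACNGNC was present in 7 of the 36 Usp promoters, against 32.8% of all 32851 promoters of the table. It was found in 2 of 12 promoters of genes that rose from 8 to 18 dpp, in 3 of 14 of genes that fell and in 2 of 10 of the rest. The cyclic AMP response element TGACGTCA (1.79% of all promoters) and the RFX-type motif GTTGCCATG (0.773%) had no match on either strand in the 36 windows. These matches describe letters in the windows only.

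Usp transcripts were present at every age, at levels that differed widely between genes. The summed level of the 48 genes was 2406 ± 82.9 TPM (SD, n = 3) at 8 dpp, 2412 ± 40.1 (n = 5) at 14 dpp and 2612 ± 188 (n = 5) at 18 dpp, and the mice of 8 and 18 dpp overlapped. At 8 dpp, 5 genes averaged at least 100 TPM and 6 were under 10 TPM, and at 18 dpp these numbers were 9 and 5. The 5 highest genes at 8 dpp were Usp9x, Usp19, Usp7, Usp22 and Usp5. At 18 dpp they were Usp19, Usp1, Usp8, Usp47 and Usp7. Usp19, which encodes an enzyme with a form anchored in the endoplasmic reticulum, was at rank 1 or 2 at all 6 ages. The 8 genes below the table's level were Usp13, Usp29, Usp51 and 5 Usp17-like genes. No mouse exceeded 2.7 TPM for Usp13 or 1.61 TPM for Usp51, and the Usp17-like genes were at 0 in nearly all samples. Mean Usp29 was 0.393 TPM at 8 dpp, 1.49 TPM at 18 dpp and 2.29 TPM in the adult samples.

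The make-up of the preparations changed with age, and these values stand beside every result below. Summed over 8 genes, pachytene spermatocyte markers lay between 150 and 207 TPM at 8 dpp and between 3233 and 5431 TPM at 18 dpp, and all 8 rose. Spermatogonium markers (6 genes) lay between 568 and 668 TPM at 8 dpp and between 233 and 312 TPM at 18 dpp, and all 6 fell. The label is germ cells, but Sertoli markers (8 genes) were present at 7591 to 8611 TPM at 8 dpp and 3577 to 4740 TPM at 18 dpp, with 7 lower and 1 higher. In the adult samples the 3 sums were 10599 to 10890, 8.94 to 11.4 and 321 to 470 TPM. Most of the juvenile Sertoli sum came from Clu alone, whose mean went from 5377 TPM in the youngest mice to 2899 TPM in the oldest. Sox9 and Gata4, by contrast, averaged 97.8 and 241 TPM in the youngest mice. By its own cytological counts, the study found a large majority of germ cells in every juvenile preparation. The marker sums are RNA levels and give no share of cells. Peritubular markers (5 genes) summed to 1051 to 1160 TPM at 8 dpp and 524 to 1034 TPM at 18 dpp. Leydig, macrophage, red blood cell and endothelial markers each summed to at most 681 TPM in the mice of 8 and 18 dpp. Of these, 4 of 5 macrophage markers, 3 of 6 Leydig markers and 1 of 4 endothelial markers rose, and 1 endothelial marker fell. Spermatid markers (6 genes) summed to 6.13 to 17.0 TPM at 18 dpp and to 872 to 1189 TPM in the adult samples. The part of any of these cells in a Usp result was not tested, and in bulk samples fewer cells of a type and less RNA per cell cannot be told apart. At 18 dpp, mice 4 and 5 stood apart from mice 1 to 3, with pachytene marker sums of 3332 and 3233 TPM against 5319 to 5431 TPM.

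Of the 48 Usp genes, 44 differed among the 6 ages by limma's F test with Benjamini-Hochberg adjustment over all 20368 genes, where 77.6% of all genes did. The exceptions were Usp39 (adjusted p = 0.0531), Usp40 (adjusted p = 0.0743), Usp50 (adjusted p = 0.159) and Usp30 (adjusted p = 0.308), as tested with limma. The 44 include Usp18, Usp43 and Usp44, which reached the level of the table at only some ages and were tested only through those. Usp30 encodes an enzyme of the mitochondrial outer membrane and stood at 28.8 ± 1.05 TPM (SD, n = 3) at 8 dpp and 31.2 ± 2.49 TPM (n = 5) at 18 dpp.

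From 8 to 18 dpp, 15 Usp genes rose, 20 fell and 13 did not pass the adjusted threshold of 0.05. The 15 include Usp44, which reached the level of the table only at 18 dpp. The 20 include Usp43, which reached it only at 8, 10 and 12 dpp. Rises were called for 31.8% of all genes and falls for 36.3%, beside 31.2% and 41.7% of the family. The median log2 fold change of the 48 genes was -0.11, beside -0.09 over all genes, and single genes ranged from -1.30 to 3.38. In 34 of the 35 called genes no mouse of 18 dpp overlapped a mouse of 8 dpp, Usp34 being the exception, and the same held for 87.1% of all called genes. The split depended on scaling, as it did over all genes. With median-of-ratios factors 22 Usp genes were higher and 18 lower, beside 7589 and 5991 of all 20368 genes. With quantile normalization 14 and 24 were, beside 5532 and 9148 of all genes. The median of all genes then moved from -0.09 to 0.05 and to -0.26 on the log2 scale. In mice 1 to 3 of each age alone, the counts were again 15 and 20, and 34 of the 35 calls were shared.

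**Figure D1:**
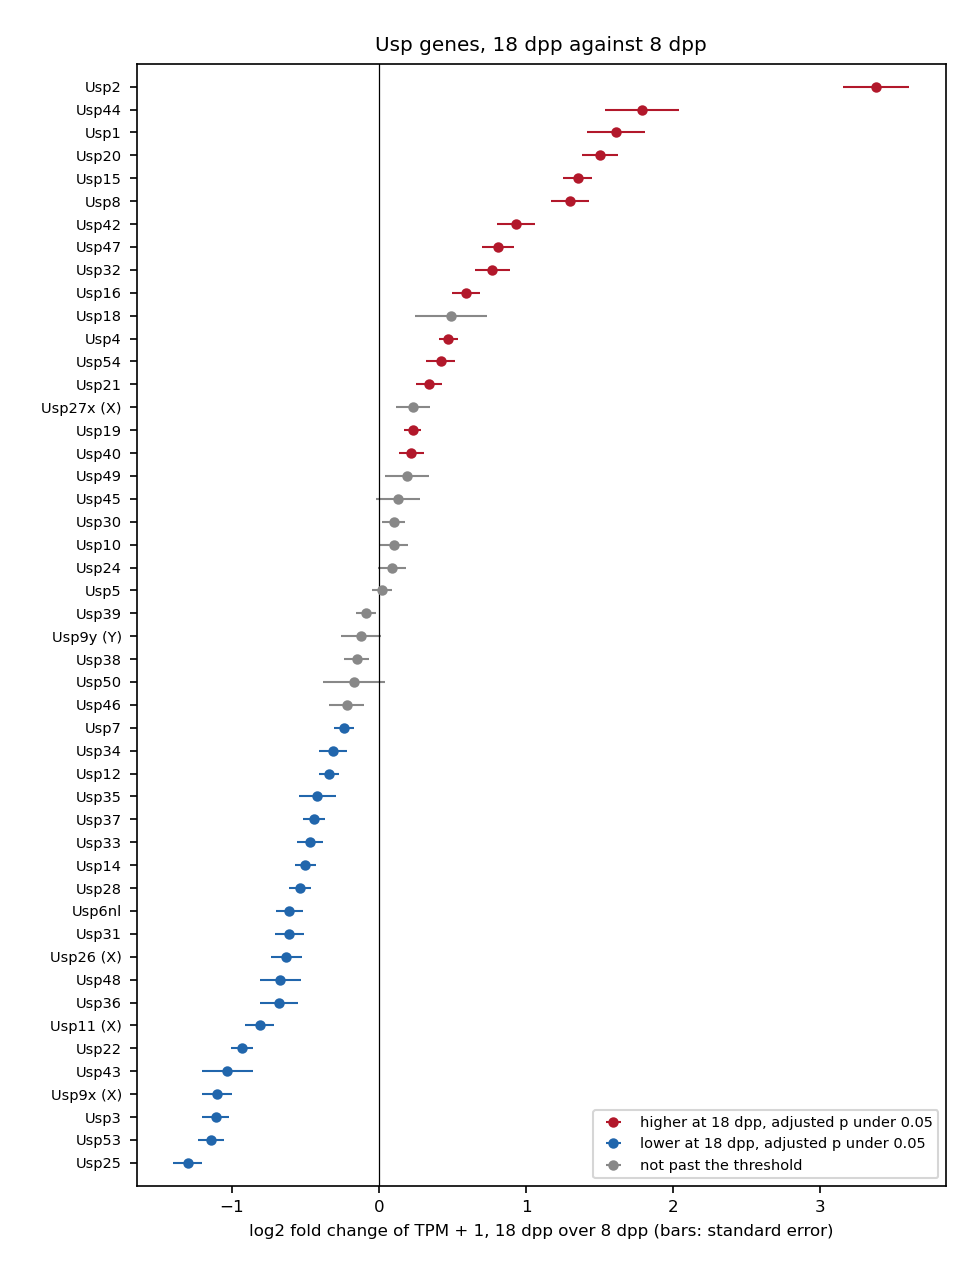
Log2 fold change of TPM + 1 from 8 dpp (3 mice) to 18 dpp (5 mice) for the 48 Usp genes, with standard errors from limma and sex-linked genes marked X or Y. Usp2 stands far to the right at 3.38, 15 genes are called higher and 20 lower (22 and 18 with median-of-ratios scaling, 14 and 24 with quantile normalization). The counts of all genes shifted in the same directions with these scalings.

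Among the genes that rose, Usp2 changed most, by 3.38 on the log2 scale. Usp2 (chr9:44067021-44095627, + strand) encodes a deubiquitinase with forms that differ at the amino end, and its loss in mice is known to reduce male fertility. The 3 mice of 8 dpp had 9.55, 12.3 and 11.9 TPM, those of 10 dpp 14.4, 13.2, 11.1, 13.1 and 10.6 TPM and those of 12 dpp 12.1, 13.8, 16.9, 10.5 and 10.9 TPM. Mice of 14 dpp read 22.2, 16.9, 16, 26.1 and 17 TPM, mice of 16 dpp 83.4, 46, 42.8, 40.1 and 58 TPM and mice of 18 dpp 177, 144, 156, 88.8 and 89.3 TPM. Levels stayed between 9.55 and 16.9 TPM to 12 dpp, and from 16 dpp on each mouse was above every younger mouse. The test from 8 to 18 dpp gave a log2 fold change of 3.38 ± 0.223 SE, adjusted p = 4.29e-13 by limma. Usp2 rose in both late steps, from 14 to 16 dpp (log2 fold change 1.39 ± 0.193 SE, adjusted p = 4.5e-06) and from 16 to 18 dpp (log2 fold change 1.26 ± 0.193 SE, adjusted p = 8.98e-06), by limma. Its rank among the 48 genes went from 42 at 8 dpp to 6 at 18 dpp.

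Usp1 (chr4:98923810-98935543, + strand) acts with its partner Wdr48 on ubiquitinated Fancd2 and Pcna in DNA repair. Usp1 read 59.8, 52.3 and 59.6 TPM at 8 dpp, 56.4, 53.7, 59.3, 52 and 59.5 TPM at 10 dpp and 41.6, 44.9, 43.4, 48.1 and 39.7 TPM at 12 dpp. It then stood at 44.4, 43.7, 42, 53.4 and 47.1 TPM at 14 dpp, 103, 65.4, 53.9, 66.9 and 89.2 TPM at 16 dpp and 247, 241, 211, 122 and 113 TPM at 18 dpp. The mice of 12 dpp were all below those of 10 dpp, a step that did not pass the test (log2 fold change -0.36 ± 0.172 SE, adjusted p = 0.144, limma), and the mice of 18 dpp were all above those of every other age. Mice 4 and 5 of 18 dpp, the pair with the lower pachytene marker sums, had the lowest Usp1 of that age. From 8 to 18 dpp the log2 fold change was 1.61 ± 0.199 SE (adjusted p = 5.7e-08) by limma, and 2.00 in mice 1 to 3 alone. Wdr48, which also activates Usp12 and Usp46, rose from 48.2 ± 3.12 TPM (n = 3) to 188 ± 51.6 TPM (n = 5), a log2 fold change of 1.90 ± 0.147 SE. The substrates Fancd2 and Pcna rose by 0.31 and 0.51 on the log2 scale, while Usp12 fell. Usp46 was not called, except as lower with quantile normalization (log2 fold change -0.31, adjusted p = 0.0204, limma) and without mouse 1 of 18 dpp (log2 fold change -0.27, adjusted p = 0.0476, limma).

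Usp44, Usp20 and Usp8 were also higher, from very different levels. Usp44 (chr10:93831555-93858088, + strand) is known for its part in the mitotic spindle checkpoint. Its values were 1.02, 0.44 and 0.69 TPM at 8 dpp, 0.8, 0.97, 0.81, 0.73 and 0.86 TPM at 14 dpp, 2.46, 1.25, 1.23, 1.84 and 1.86 TPM at 16 dpp and 8.23, 7.06, 6.42, 2.18 and 2.95 TPM at 18 dpp, with 10 and 12 dpp between 0.28 and 0.85 TPM. Usp44 was the lowest of the 48 genes up to 16 dpp, and at 18 dpp mice 1 to 3 were above 6 TPM while mice 4 and 5 were below 3 TPM. The gene reached the 3 TPM that the table asks for in at least 1 mouse only at 18 dpp, so that it was tested only through the age at which it was high, and its log2 fold change of 1.79 ± 0.253 SE is given as a description. The log2(TPM + 1) scale understates changes of so low a gene.

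Usp20 (chr2:30982279-31023586, + strand), which is known to act on adrenergic receptors, had 15.7, 14.1 and 15.6 TPM at 8 dpp, 15.3, 15.9, 13.8, 14.7 and 14.1 TPM at 10 dpp and 20.8, 18.9, 19.9, 20.3 and 20.4 TPM at 12 dpp. Later mice had 21, 18.6, 22, 21.8 and 22.1 TPM at 14 dpp, 30.9, 27.8, 24, 26.2 and 30.5 TPM at 16 dpp and 59.4, 48.2, 51.4, 34.6 and 35.2 TPM at 18 dpp. Unlike Usp2 and Usp1, Usp20 had a called rise already from 10 to 12 dpp (log2 fold change 0.42 ± 0.106 SE, adjusted p = 0.00485, limma), where no mice overlapped. From 8 to 18 dpp the log2 fold change was 1.50 ± 0.122 SE (adjusted p = 2.37e-11) by limma.

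Usp8 (chr2:126707328-126759297, + strand) sorts ubiquitinated receptors at endosomes and has been linked to acrosome formation. At 8 dpp its values were 59.7, 55.6 and 55.2 TPM, at 10 dpp 59.4, 58.5, 59.8, 57.2 and 59.8 TPM and at 12 dpp 57.3, 65.6, 72.9, 68.6 and 66.6 TPM. At 14 dpp they were 70.5, 68.5, 72.1, 76.6 and 72.3 TPM, at 16 dpp 99.4, 78.3, 78.8, 79.8 and 88.4 TPM and at 18 dpp 182, 172, 160, 102 and 109 TPM. The step from 16 to 18 dpp was called (log2 fold change 0.73 ± 0.112 SE, adjusted p = 8.69e-06, limma), and each mouse of 18 dpp was above all mice of 16 dpp. Over the whole period the log2 fold change was 1.30 ± 0.13 SE (adjusted p = 1.26e-09) by limma. Usp15, which acts on receptor-regulated Smads, rose from 33.4 ± 1.78 TPM to 87.2 ± 11.1 TPM, a log2 fold change of 1.35.

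**Figure D2:**
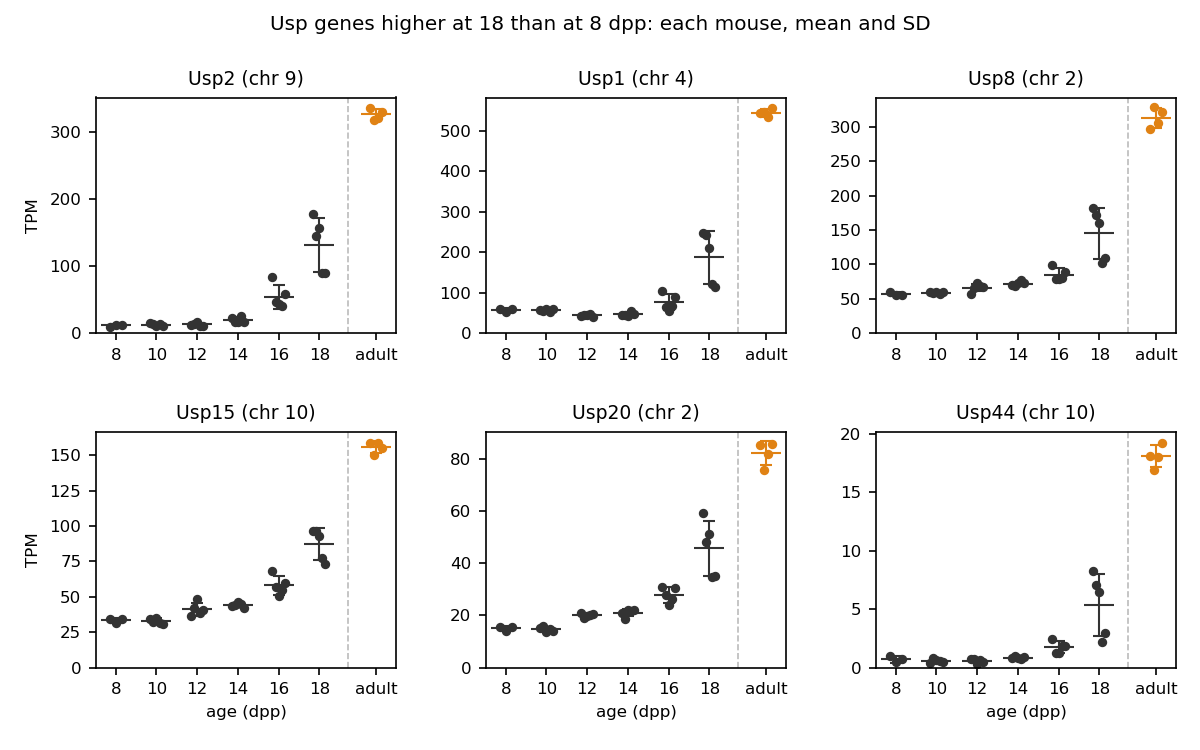
TPM of 6 Usp genes that were higher at 18 than at 8 dpp, by age, with each juvenile mouse (black) or adult pool (orange) as a point and the mean and SD as bars. The adult samples, right of the dashed line, were quantified in another table, and the rise is steepest between 14 and 18 dpp for Usp2 and Usp1.

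The other called rises were smaller. Usp42, a p53 deubiquitinase, rose from 27.4 ± 2.52 to 54 ± 12.1 TPM (log2 fold change 0.93), and Usp47, which acts on DNA polymerase beta in base excision repair, from 80.2 ± 5.72 to 144 ± 28.4 TPM (0.81). Usp32 rose by 0.77 and Usp16, a histone H2A deubiquitinase, by 0.59 on the log2 scale. Usp4, Usp54, Usp21, Usp19 and Usp40 rose by 0.47, 0.42, 0.34, 0.23 and 0.22. Among these, the call of Usp40 was lost with quantile normalization (adjusted p = 0.139) and without mouse 1 or mouse 2 of 8 dpp (adjusted p = 0.0707 and 0.0569), by limma.

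The largest falls were those of Usp25, Usp53, Usp3 and Usp9x. Usp25 (chr16:77013706-77116780, + strand) is a regulator of immune and proteasomal signalling. It read 30.1, 26.1 and 28.5 TPM at 8 dpp, 24.8, 24.3, 27, 19.6 and 22.6 TPM at 10 dpp and 14.5, 17.5, 16.8, 18.5 and 14.9 TPM at 12 dpp. After that it read 13.9, 14.4, 13.8, 12.2 and 12.7 TPM at 14 dpp, 10.6, 13, 13.2, 13 and 11.7 TPM at 16 dpp and 12, 10.0, 11, 10.9 and 10.4 TPM at 18 dpp. The called step of Usp25 was the early one, from 10 to 12 dpp (log2 fold change -0.50 ± 0.0851 SE, adjusted p = 0.000101, limma), and no mice of these ages overlapped. From 8 to 18 dpp the log2 fold change was -1.30 ± 0.0982 SE (adjusted p = 5.94e-12) by limma.

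Usp53 (chr3:122931493-122984510, - strand) encodes a protein of tight junctions. Its values were 49.3, 46.9 and 45.4 TPM at 8 dpp, 43, 38, 38.7, 39.7 and 35.3 TPM at 10 dpp and 28.8, 36.7, 35.7, 31.8 and 30.8 TPM at 12 dpp. They were 31, 32.6, 34.4, 33 and 34.3 TPM at 14 dpp, 26.3, 23.3, 30.4, 26.5 and 21.9 TPM at 16 dpp and 19.4, 22.5, 19.5, 20.8 and 22.2 TPM at 18 dpp. All mice of 18 dpp were below all mice up to 14 dpp (log2 fold change -1.14 ± 0.0891 SE, adjusted p = 1.15e-11 against 8 dpp, limma). Over the same ages 7 of 8 Sertoli markers and all 6 spermatogonium markers fell, and the part of either in the Usp53 result was not tested.

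Usp3 (chr9:66514637-66593142, - strand) removes ubiquitin from histones H2A and H2B. The mice of 8 dpp had 88.4, 77.5 and 83.5 TPM, those of 10 dpp 65.3, 67.7, 68.4, 61.2 and 61.5 TPM and those of 12 dpp 55.4, 61.3, 60.8, 60.5 and 55.5 TPM. Those of 14 dpp had 57.5, 51.1, 54.8, 54.8 and 60.5 TPM, those of 16 dpp 54.6, 54.1, 55.3, 47.3 and 48.5 TPM and those of 18 dpp 35.1, 30.0, 38.6, 41.1 and 46.8 TPM. Usp3 was highest in the 3 mice of 8 dpp and lowest in the 5 mice of 18 dpp, without overlap with the neighbouring ages in either case. The log2 fold change was -1.11 ± 0.0928 SE (adjusted p = 4.33e-11) by limma, and the step from 8 to 10 dpp did not pass (log2 fold change -0.35 ± 0.0928 SE, adjusted p = 0.0565, limma), although it did with median-of-ratios scaling (adjusted p = 0.0133, limma).

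The other histone-directed members did not move as a block. Usp22, the H2B deubiquitinase of the SAGA complex, fell from 126 ± 2.31 TPM to 66.2 ± 6.86 TPM (log2 fold change -0.93 ± 0.0731 SE, adjusted p = 1.34e-11, limma), while Usp16 rose. Atxn7l3 and Eny2, the partners of Usp22 in that module, fell by 0.30 and 0.36 on the log2 scale, and Atxn7 was not called (adjusted p = 0.207, limma). With median-of-ratios scaling only 1 of the 20 partners and substrates was called lower, so these 2 falls did not both keep their call. The remaining falls were those of Usp43 (-1.03), Usp36 (-0.68), Usp48 (-0.67), Usp6nl (-0.61), Usp31 (-0.61), Usp28 (-0.54), Usp14 (-0.50), Usp33 (-0.47), Usp37 (-0.44), Usp35 (-0.42), Usp12 (-0.34), Usp34 (-0.31) and Usp7 (-0.24), given as log2 fold changes, and 2 sex-linked genes. Usp43, at 4.78, 3.97 and 3.46 TPM in the mice of 8 dpp, reached the level of the table only at 8, 10 and 12 dpp. It was tested only through the ages at which it was high, and its fall is given as a description. Usp14, which sits on the proteasome, went from 93 ± 1.78 to 66 ± 9.05 TPM. Usp7, which acts on Mdm2 and Trp53, went from 168 ± 7.84 to 142 ± 2.71 TPM, and its call was lost with median-of-ratios scaling (adjusted p = 0.358, limma), as was that of Usp34 (adjusted p = 0.229, limma). Usp34 also lost its call in mice 1 to 3 alone (adjusted p = 0.0666, limma).

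Of the 4 X-linked members, 3 fell from 8 to 18 dpp, and Usp27x was not called. Among all 652 X-linked genes 62.3% fell and 10.4% rose, against 38.4% and 34.7% of 14210 autosomal Ensembl genes, so falls were common to the chromosome. Usp9x (chrX:13071498-13173328, + strand) encodes a large deubiquitinase that stabilises many proteins and was the highest Usp gene at 8 dpp. It read 180, 174 and 183 TPM at 8 dpp, 216, 180, 180, 169 and 160 TPM at 10 dpp and 120, 174, 148, 148 and 148 TPM at 12 dpp. The values were 123, 132, 152, 121 and 132 TPM at 14 dpp, 109, 107, 114, 101 and 101 TPM at 16 dpp and 90.1, 73.1, 71.8, 89.4 and 92.7 TPM at 18 dpp. From 14 dpp on, successive ages did not overlap for Usp9x, and its rank fell to 11 at 18 dpp. The log2 fold change was -1.10 ± 0.102 SE (adjusted p = 3.43e-10) by limma, with called falls from 10 to 12, from 14 to 16 and from 16 to 18 dpp. The first of these was lost without mouse 1 of 10 dpp (adjusted p = 0.0706, limma) or mouse 1 of 12 dpp (adjusted p = 0.0676, limma).

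Usp11 (chrX:20703906-20720539, + strand), which acts on Brca2 and other repair proteins, had 31.4, 30.6 and 35.2 TPM at 8 dpp, 26.5, 30.3, 29.9, 30.6 and 24.8 TPM at 10 dpp and 28.3, 30.5, 34, 34.4 and 32.4 TPM at 12 dpp. It had 31.2, 31.9, 32, 29.6 and 31.4 TPM at 14 dpp, 23.4, 28, 27.3, 25.7 and 26.1 TPM at 16 dpp and 15.4, 16.6, 17.1, 18.3 and 23.4 TPM at 18 dpp. Usp11 thus ranged between 24.8 and 35.2 TPM to 14 dpp and fell in the last steps (log2 fold change -0.81 ± 0.0981 SE, adjusted p = 3.89e-08 over the whole period, limma). The Usp11 call from 14 to 16 dpp was lost with median-of-ratios scaling (adjusted p = 0.0516, limma) and without mouse 1 of 16 dpp (adjusted p = 0.099, limma), among other mice. Mouse 5 was the highest of 18 dpp and reached the lowest mouse of 16 dpp.

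Usp26 (chrX:51753959-51801233, - strand) is a testis-expressed gene. Its values were 34.8, 33.1 and 36.4 TPM at 8 dpp, 36.1, 30.3, 30.7, 36.1 and 26.8 TPM at 10 dpp and 26.5, 34.7, 37, 32.4 and 34 TPM at 12 dpp. The later ones were 31.7, 28.7, 34.6, 36.3 and 37.8 TPM at 14 dpp, 28.7, 24.2, 25.5, 27 and 25.8 TPM at 16 dpp and 21.3, 21, 19.6, 23.7 and 25.4 TPM at 18 dpp. It ranged between 26.5 and 37.8 TPM to 14 dpp, and the mice of 16 and 18 dpp overlapped although the step was called (log2 fold change -0.23 ± 0.0923 SE, adjusted p = 0.0339, limma). From 8 to 18 dpp the log2 fold change was -0.63 ± 0.107 SE (adjusted p = 9e-06) by limma.

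Usp27x (chrX:7371276-7375830, - strand), a relative of Usp22, was the only tested X-linked member without a called fall from 8 to 18 dpp. Of all 652 X-linked genes, 178 were not called either. The mice of 8 dpp had 11.2, 12.1 and 12.6 TPM and those of 10 dpp 20.4, 17.2, 17.5, 17.9 and 17.8 TPM, a rise without overlap (log2 fold change 0.56 ± 0.116 SE, adjusted p = 0.0108, limma). Its values were 16.5, 17.8, 19.2, 20.1 and 21 TPM at 12 dpp, 16.6, 20.4, 19.2, 19.2 and 14.7 TPM at 14 dpp, 16.2, 15.7, 18.9, 17.4 and 18.2 TPM at 16 dpp and 12.8, 11.1, 14.3, 17.4 and 16.2 TPM at 18 dpp. Between 16 and 18 dpp it fell (log2 fold change -0.26 ± 0.1 SE, adjusted p = 0.0283, limma), and 8 and 18 dpp overlapped (log2 fold change 0.23 ± 0.116 SE, adjusted p = 0.0808, limma). Over the whole period Usp27x was called higher with median-of-ratios scaling (log2 fold change 0.40, adjusted p = 0.00138, limma) and without mouse 2 of 18 dpp (log2 fold change 0.31, adjusted p = 0.0141, limma).

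Usp9y (chrY:1298961-1459782, - strand), the Y-linked relative of Usp9x, stayed low. It read 5.38, 5.18 and 6.58 TPM at 8 dpp, 5.01, 4.69, 4.9, 5.07 and 4.37 TPM at 10 dpp and 4.98, 5.91, 7.08, 6.54 and 7.02 TPM at 12 dpp. It read 5.4, 5.72, 6.73, 8.04 and 6.58 TPM at 14 dpp, 5.82, 5.58, 5.37, 4.65 and 4.78 TPM at 16 dpp and 5.17, 3.82, 4.66, 5.91 and 6.48 TPM at 18 dpp. The ages of 8 and 18 dpp overlapped (log2 fold change -0.12 ± 0.137 SE, adjusted p = 0.434, limma), and with quantile normalization Usp9y was called lower (log2 fold change -0.36, adjusted p = 0.0132, limma).

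**Figure D3:**
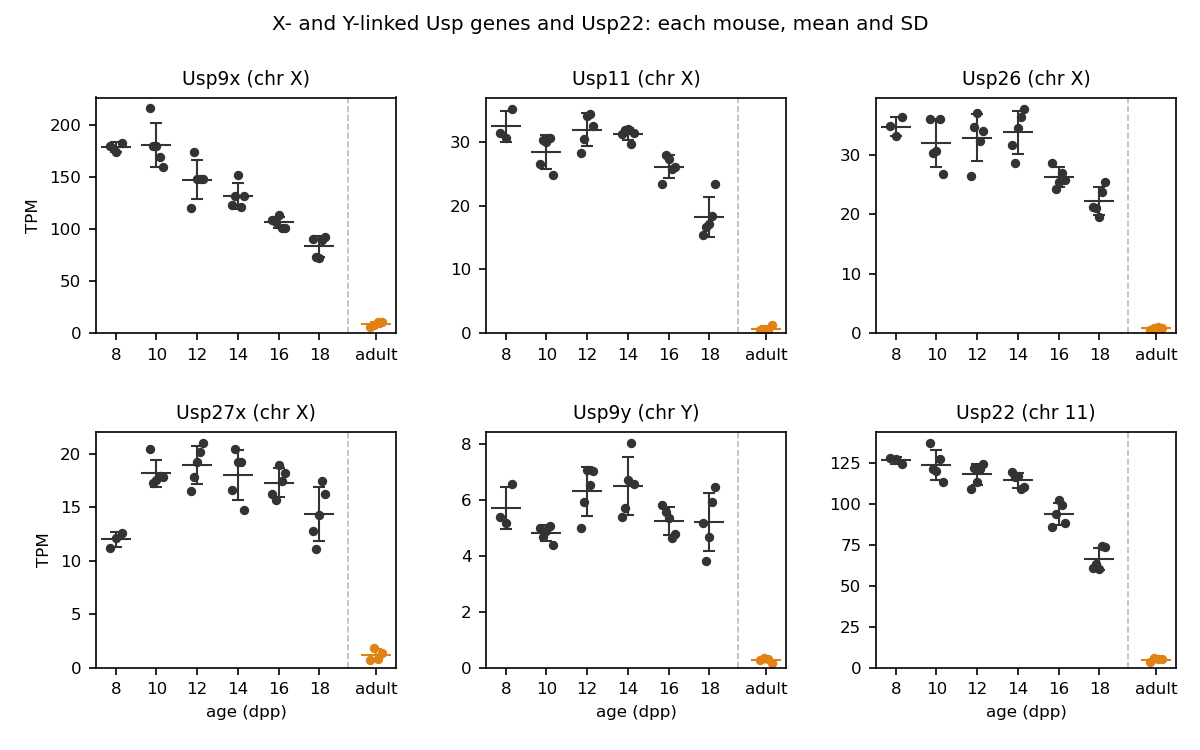
TPM of the X- and Y-linked Usp genes and of autosomal Usp22, the relative of Usp27x, by age, with each juvenile mouse (black) or adult pool (orange) as a point and the mean and SD as bars. Usp9x declines from 10 dpp on, Usp11 and Usp26 from 16 dpp on, and all 6 genes are lowest in the adult samples, which come from another table.

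Between neighbouring ages, most calls fell in 3 of the 5 steps. From 8 to 10 dpp, 1 Usp gene rose (Usp27x) and 0 fell by limma, against 0.977% and 0.226% of all genes. An unadjusted limma p under 0.05 was found for 5 of the 48 Usp genes and for 2337 of all 20368 genes. The Usp27x call was lost without mouse 1 of 8 dpp, and 2 genes were called without mouse 2 or mouse 5 of 18 dpp. From 12 to 14 dpp, 0 rose and 0 fell by limma, against 0.157% and 0.0147% of all genes. There, 8 of the 48 Usp genes and 1962 of all 20368 genes had an unadjusted limma p under 0.05. Without mouse 3 of 12 dpp, 1 Usp gene was called in that step.

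From 10 to 12 dpp, 5 Usp genes rose and 9 fell, beside 12% and 9.39% of all genes. Without mouse 1 of 10 dpp 5 rose and 4 fell, and without mouse 1 of 12 dpp 7 rose and 3 fell, so that the balance of rises and falls in this step rested on single mice. The largest change of the step was that of Usp18 (chr6:121245906-121270917, + strand), which encodes the protease that removes the interferon-induced modifier ISG15. The mice of 8 dpp had 1.72, 1.33 and 1.16 TPM, those of 10 dpp 0.85, 0.72, 1.95, 0.88 and 0.6 TPM and those of 12 dpp 3.32, 2.88, 2.78, 3.82 and 3.52 TPM. Later levels were 3.01, 3.52, 4.24, 3.51 and 1.6 TPM at 14 dpp, 3.97, 4.05, 3.03, 3.75 and 4.3 TPM at 16 dpp and 2.43, 0.74, 2.65, 3.32 and 3.49 TPM at 18 dpp. All mice of 12 dpp were above all mice of 10 dpp (log2 fold change 1.12 ± 0.213 SE), at a level close to the limit of 3 TPM for the table. Usp18 reached that limit only from 12 dpp on, so that it was tested only through the ages at which it was high. Its change is given as a description. Summed macrophage markers (5 genes) lay between 21.6 and 34.1 TPM in the mice of 10 dpp and between 37.6 and 60.6 TPM in those of 12 dpp, and 4 of the 5 rose in this step. Their part in the Usp18 result was not tested. Usp20, Usp54, Usp15 and Usp19 rose with it by 0.42, 0.38, 0.32 and 0.27 on the log2 scale. The falls were led by Usp43 (-0.62), Usp25 (-0.50) and Usp6nl (-0.44). Usp43 reached 3 TPM only at 8, 10 and 12 dpp, so that it was tested only through the ages at which it was high.

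From 14 to 16 dpp, 4 Usp genes rose and 12 fell, against 12.7% and 11.3% of all genes. The rises were those of Usp2, Usp1, Usp15 and Usp20, and the falls ranged from -0.37 (Usp48) to -0.19 (Usp14) on the log2 scale. Falls numbered 8 with median-of-ratios scaling, 16 with quantile normalization and 6 in mice 1 to 3 alone. The shares of all genes in these settings were not set beside them. From 16 to 18 dpp, 13 rose and 15 fell, against 23.4% and 30.6% of all genes. With median-of-ratios scaling 21 rose and 6 fell, and the shares of all genes with that scaling were not set beside them. Usp2, Usp1, Usp44 and Usp8 rose most, by 1.26, 1.25, 1.12 and 0.73, and Usp18, Usp11 and Usp22 fell most, by 0.52, 0.51 and 0.50 on the log2 scale. Usp44 reached 3 TPM only at 18 dpp, so that it was tested only through the age at which it was high. Its rise in this step is given as a description. The Usp18 call was lost without mouse 2 of 18 dpp (adjusted p = 0.206, limma) and with median-of-ratios scaling (adjusted p = 0.12, limma). All 4 X-linked members fell in this step, as did 61.2% of X-linked genes, but with median-of-ratios scaling only Usp11 kept its call, with adjusted p-values of 0.0519 for Usp9x, 0.344 for Usp27x and 0.467 for Usp26 by limma. The calls of Usp26 and Usp27x in this step were also lost without mouse 2 of 18 dpp (adjusted p = 0.0736 and 0.123, limma), among other mice. Usp24 and Usp45 rose here (0.26 and 0.42) without a call over the whole period.

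In several related sets, close relatives moved in opposite directions from 8 to 18 dpp. Since 31.8% of all genes rose and 36.3% fell, opposite calls are also common among unrelated genes, and their share was not counted. Of Usp4, Usp11 and Usp15, which share a domain structure, the autosomal pair rose (0.47 and 1.35) and X-linked Usp11 fell (-0.81). Usp20 rose by 1.50 and its relative Usp33 fell by 0.47. Usp42 rose by 0.93 and Usp36, a nucleolar enzyme, fell by 0.68. Usp47 rose by 0.81 and Usp7 fell by 0.24 (a call lost with median-of-ratios scaling), and Usp54 rose by 0.42 while Usp53 fell by 1.14. Usp49, the relative of Usp44, was not called (0.19, adjusted p = 0.276, limma) but was called higher with median-of-ratios scaling (0.36, adjusted p = 0.0394, limma). Usp8 rose by 1.30, and Usp50 was not called (-0.17, adjusted p = 0.484, limma), with a wide spread of 82.1 ± 22.8 TPM at 8 dpp. Both members rose in the pair Usp2 and Usp21 (3.38 and 0.34). Both fell in the pairs Usp25 and Usp28, Usp31 and Usp43, and Usp26 and Usp37. Differences between relatives were not tested. Exons of 19 of the 48 genes overlap another annotated gene, 17 of them a gene on the opposite strand, as Usp46 does with Usp46os1 and Usp46os2 and Usp2 with Gm49380 and Gm39325, and whether counting used the strand is not given in the sources used here.

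Within Usp2 the transcripts did not rise together. Usp2-201, Usp2-203 and Usp2-208 encode a protein of 619 codons with the cysteine codon at position 290, and Usp2-202 and Usp2-206 encode shorter ones of 396 and 393 codons with it at positions 67 and 64. Usp2-201 starts at chr9:44067021 and Usp2-202 at chr9:44084939, just after the promoter printed above. Usp2-202 was at 4.6, 5.43 and 8.35 TPM in the mice of 8 dpp and at 84.8, 97.5, 128, 55.5 and 55.4 TPM in those of 18 dpp. Over the same mice Usp2-201 was at 3.28, 3.33 and 2.07 TPM and at 4.81, 3.61, 1.59, 1.65 and 2.28 TPM. In all 28 mice but 1, Usp2-201 lay between 1.45 and 5.58 TPM. The exception was mouse 2 of 14 dpp, where Usp2-201 was listed at 0.0 TPM and Usp2-203, another form of 619 codons, at 4.01 TPM.

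As a share of the gene's TPM, Usp2-201 made up 34.3%, 27.1% and 17.5% in the mice of 8 dpp and 35.8%, 19.5%, 50.5%, 11.6% and 25.7% in those of 10 dpp. It made up 2.11%, 6.0%, 9.46%, 3.62% and 4.59% at 16 dpp and 2.72%, 2.5%, 1.02%, 1.86% and 2.55% at 18 dpp, with no overlap between early and late mice. The share went from 27.7% ± 12.3 (SD, n = 8) at 8 and 10 dpp to 3.64% ± 2.5 (n = 10) at 16 and 18 dpp, a change of -24.1 points (SE 3.85, adjusted p = 0.000386, limma). It was the 1 call among 105 Usp transcripts of 28 Usp genes by limma with a change of at least 20 points, where 2.17% of 26345 transcripts were called. Usp2-206 went from 0.623 ± 0.888 TPM (n = 3) at 8 dpp to 33.1 ± 19.5 TPM (n = 5) at 18 dpp. Usp2-204, annotated as a target of nonsense-mediated decay, went from 0.01 ± 0.0173 to 10.1 ± 6.33 TPM. These TPM values were not tested. Between early and late mice, the shares of Usp2-202 (49.5% to 69.5%), Usp2-206 (11.9% to 19.1%) and Usp2-204 (1.24% to 6.95%) were not called. Their adjusted p-values by limma were 0.0515, 0.439 and 0.187. Early shares rest on gene totals of 9.55 to 14.4 TPM and varied widely between mice.

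**Figure D4:**
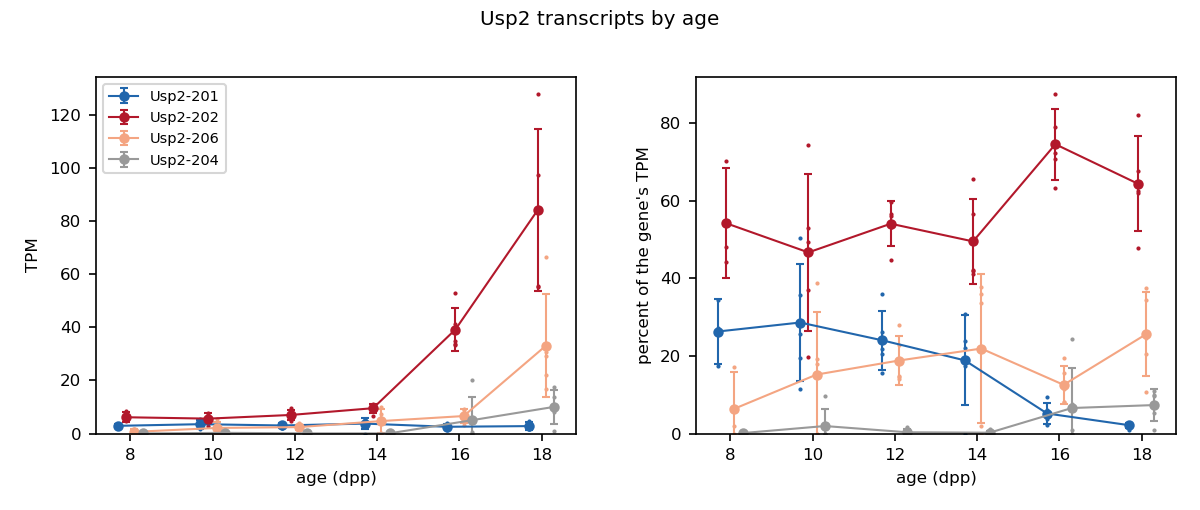
TPM (left) and percent of the gene's TPM (right) of 4 Usp2 transcripts by age, with mice as small points, means as large points and SD as bars, drawn from 0 upward. Usp2-202 reaches a mean of 84.3 TPM at 18 dpp, and the share of Usp2-201 drops from 26.3% at 8 dpp to 2.13% at 18 dpp.

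At a change of at least 10 points, 6 of the 105 transcripts, from 5 Usp genes, were called, where 6.31% of all transcripts were. Besides Usp2-201 these were Usp21-201 (71.9% to 84.7%), Usp10-210 (5.73% to 18.1%), Usp27x-201 (86.6% to 76.4%), Usp27x-202 (13.4% to 23.6%) and a transcript of Usp34, ENSMUST00000101465, that is not in the annotation used for names (2.12% to 14.8%). Usp27x-202 is annotated as a target of nonsense-mediated decay, so the coding share of Usp27x fell by 10.2 points.

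The adult samples are set beside those of 18 dpp without a test, because the adult table was quantified separately. All 4 adult pools were above all 5 mice of 18 dpp for 14 of the 48 genes and below them for 24, against 22.3% and 53.4% of all genes. Of the 15 genes that rose from 8 to 18 dpp, 11 were above, 3 below (Usp19, Usp40 and Usp54) and 1 overlapped, where 60.9% of all genes that rose were above and 17.8% below. Of the 20 that fell, 14 were below, 2 above (Usp25 and Usp6nl) and 4 overlapped, where 85.8% of all genes that fell were below and 1.61% above. The 3 highest Usp genes were Usp1 at 543, 545, 533 and 556 TPM, Usp2 at 335, 318, 321 and 330 TPM and Usp8 at 297, 329, 306 and 321 TPM. The summed level of the 48 genes was 3012 ± 31.3 TPM (SD, n = 4).

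Usp44 reached 18.1, 16.9, 18 and 19.2 TPM and Usp20 85.5, 76, 82 and 85.8 TPM in the adult pools, all above the mice of 18 dpp. Usp3 was at 9.44, 5.12, 7.38 and 6.5 TPM, Usp53 at 10.4, 9.44, 10.6 and 11.2 TPM and Usp18 at 0.22, 0.82, 0.0 and 0.32 TPM. Usp25 was at 14.1, 12.7, 16.1 and 13.8 TPM, above its 18 dpp level of 10.0 to 12 TPM. The sex-linked genes were among the lowest relative to 18 dpp. Usp11 was at 0.44, 0.36, 0.5 and 1.22 TPM (28.8-fold below the mean of 18 dpp), Usp26 at 0.47, 0.82, 1.08 and 0.77 TPM (28.3-fold) and Usp9y at 0.26, 0.35, 0.3 and 0.16 TPM (19.5-fold). Usp27x was at 0.71, 1.84, 0.84 and 1.39 TPM (12.0-fold) and Usp9x at 5.5, 7.56, 10.4 and 10.5 TPM (9.83-fold). Of all 652 X-linked genes, 89.4% lay below all mice of 18 dpp in the same way. Autosomal Usp22 was also far down, with a fold between those of Usp9y and Usp27x, at 4.87 ± 1.23 TPM (13.6-fold), and Usp36 stood at 1.7 ± 0.391 TPM (8.08-fold).

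**Figure D5:**
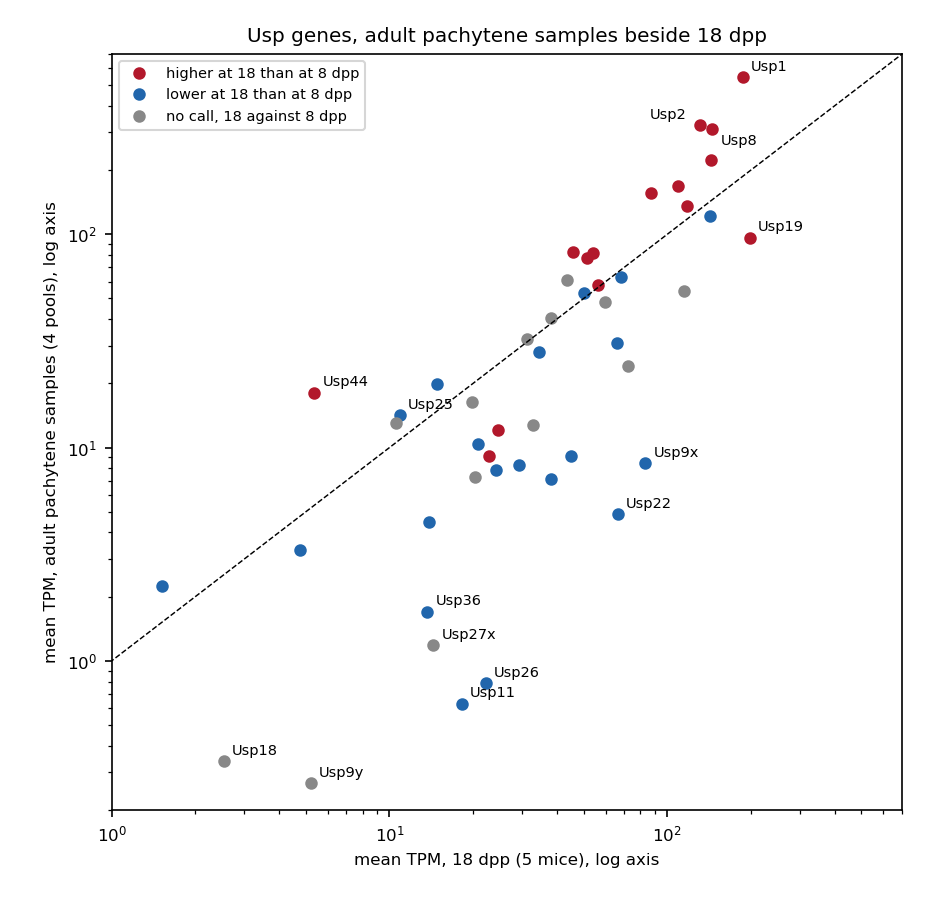
Mean TPM of the 48 Usp genes in the 4 adult pools against the 5 mice of 18 dpp, both on log axes, coloured by the call from 8 to 18 dpp, with the dashed line at equal levels. Of the 15 rising genes 11 had all pools above all mice, and Usp11, Usp26, Usp9y and Usp22 lie farthest below it.

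The rest of the ubiquitin system was set beside the family. Of 39 other deubiquitinases 13 rose and 13 fell from 8 to 18 dpp (median log2 fold change -0.05), and with median-of-ratios scaling 17 rose and 11 fell, and with quantile normalization 12 and 18. The largest changes were in Mindy4, from 2.48 to 24.9 TPM (2.87), Stambp, an endosomal metalloprotease, from 17.5 to 89.4 TPM (2.29), and Zup1, from 4.78 to 25.8 TPM (2.21). Of 20 partners and substrates 8 rose and 6 fell (11 and 1 with median-of-ratios scaling), led by Wdr48 (1.90), Mdm2 (0.82) and Gmps (0.70). Of 38 genes for ubiquitin, E1 and E2 enzymes 6 rose and 20 fell (median -0.19), and with median-of-ratios scaling 11 rose and 14 fell. Ube2u, an E2 gene, went from 0.16 to 49.7 TPM (5.37), Ube2t, the E2 of the Fanconi pathway, from 48.1 to 155 TPM (1.67) and Ube2s from 305 to 941 TPM (1.62).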

How the data were processed

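Poly-A libraries of 28 juvenile and 4 adult samples were read as 100 bp pairs and 2 lanes were merged. In the labels, all 13 index sequences of 8 to 12 dpp recur among the 15 of 14 to 18 dpp. Libraries with the same index cannot have shared a lane, and how lanes were assigned is not given. Its part in comparisons across these ages was not tested. Per the labels and the study's methods, the authors used Bowtie 1.0.0 and RSEM 1.2.8 on Ensembl 75 (mm10), with NONCODE 4 and 214 piRNA precursors added. The deposited transcript and adult tables hold TPM. The deposited juvenile gene table holds a score, exp(log2(TPM + 1)) - 1, in place of the TPM that had been assumed, and it was converted back. 20288 genes then lay within 0.2 TPM of their summed transcripts and 80, none of them Usp genes, did not. A column of the authors' substage lists was not used.

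Values were tested as log2(TPM + 1) by limma (version 3.58.1, R 4.3.3). All 6 ages shared 1 model with a variance trend, and p-values were adjusted by Benjamini-Hochberg over all genes, with a threshold of 0.05. Transcript usage (percent of gene TPM, at least 3 TPM per gene and 1 TPM per transcript) was tested likewise between 8 and 10 dpp and 16 and 18 dpp. The fits were tested on simulated data. Names and coordinates came from GENCODE M21. Genes described in full were the 4 largest rises and falls, the largest change of each step, sex-linked genes, the 3 highest in adult cells and called usage changes. The members, gene lists and alternatives were chosen with earlier results of these data known.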

Additional observations from a re-analysis of the deposited data

Results flagged for a closer look

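Among 84 groups of 4 or 5 samples of the genes described in full, 3 held a value set apart from the rest, where chance sets apart about 1 in 20. Usp11 was at 1.22 TPM in adult pool 4, against 0.36 to 0.5 TPM in the other pools, a range far below any juvenile mouse. Usp18 was at 1.95 TPM in mouse 3 of 10 dpp, against 0.6 to 0.88 TPM in the other 4 mice of that age. Usp27x was at 20.4 TPM in mouse 1 of 10 dpp, against 17.2 to 17.9 TPM in the others.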

How the results depend on the processing

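Of the 48 single genes, 34 kept their call from 8 to 18 dpp over 37 alternative settings and 14 changed it, 0 of them reversing a called direction. With median-of-ratios factors 2 Usp genes were called from 8 to 10 dpp instead of 1, and at a usage change of at least 10 points 6 transcripts were called instead of 1. Leaving out 1 mouse at a time, 41 to 45 Usp genes differed among the ages. The calls were 34 to 37 from 8 to 18 dpp, 0 to 2 from 8 to 10 dpp, 9 to 16 from 10 to 12 dpp, 0 to 1 from 12 to 14 dpp, 12 to 18 from 14 to 16 dpp and 23 to 29 from 16 to 18 dpp. Usage calls were 1 to 3, Usp2-201 being among them each time, with 3 without mouse 5 of 10 dpp and 2 without mouse 3 of 8 dpp or mouse 1 or 3 of 18 dpp. The causes were not tested.

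Mouse numbers are shared between ages but name different animals, and same-numbered mice of neighbouring ages had deviations correlated between -0.248 and 0.253. With the number as a replicate block, 35 Usp genes were called from 8 to 18 dpp, 43 differed among the ages, and the steps gave 1, 15, 0, 17 and 28 calls. TPM keeps no depth, so low genes such as Usp18 and Usp44 have an unknown counting error.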
